A study of Arabidopsis thaliana with 9 samples.

Results

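FLC, its 5 closest relatives and 4 further regulators of flowering time were followed in Arabidopsis rosette leaves, as 10 genes out of the 33610 in the deposited table. They were picked by locus identifier: the repressors FLC (AT5G10140), FLM (AT1G77080), MAF2 (AT5G65050), MAF3 (AT5G65060), MAF4 (AT5G65070) and MAF5 (AT5G65080), their partner SVP (AT2G22540), the promoters of flowering SOC1 (AT2G45660) and FT (AT1G65480), and FUL (AT5G60910). The list was drawn up by name with earlier results from these 9 libraries in view. The differences below therefore describe the genes, and a p-value says where a gene stands in a fit over all genes, not that the choice of genes was borne out.

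The leaves came from 30-day-old plants grown with 13 h of light a day and were taken detached and uninfected. The 3 genotypes, each with 3 poly(A) RNA libraries, were the wild type Col-0 (WT), the overexpression line VQ28OE9 and the line labelled as a knockout, VQ28KO12. VQ28 encodes a VQ motif protein, one of a plant family of partners of WRKY transcription factors. Each line is a single numbered line. The labels do not say which promoter drives VQ28, how the knockout was made, at what hour leaves were taken, or whether the 3 libraries of a genotype are separate plants, so the p-values cover no more than the variation among these libraries, part or all of which may be technical.

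FLC is a MADS-box transcription factor that holds back flowering, and cold over winter silences it through Polycomb proteins. FLM and the MAF genes encode close relatives with related repressing roles, and SVP joins FLC and FLM in complexes that bind DNA motifs called CArG boxes. In leaves these complexes act on FT, whose protein is the florigen made in phloem companion cells and carried to the shoot tip, and on SOC1, which joins several flowering signals. Col-0 carries an inactive form of FRI, the main activator of FLC, so its FLC level is low for a plant that has not seen cold.

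The coding sequences of the FLC clade open with the MADS box, and the first 60 bases are shown because they let the relatives be compared and show how alike the reads of these genes are. Sequences are from the RefSeq TAIR10.1 genome, 5′ to 3′ on the coding strand, with bases that differ from FLC in capitals. The MAF5 run starts 21 bases after its annotated start, at the codon that lines up with the start of FLC.
FLC: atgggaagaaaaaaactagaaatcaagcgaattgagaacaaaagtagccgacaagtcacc
FLM: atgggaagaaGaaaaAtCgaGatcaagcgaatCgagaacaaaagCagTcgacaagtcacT
MAF2: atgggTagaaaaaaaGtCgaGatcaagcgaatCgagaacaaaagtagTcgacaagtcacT
MAF3: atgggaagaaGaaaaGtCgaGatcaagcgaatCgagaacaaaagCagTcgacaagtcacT
MAF4: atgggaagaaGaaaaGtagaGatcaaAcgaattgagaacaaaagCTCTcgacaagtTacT
MAF5: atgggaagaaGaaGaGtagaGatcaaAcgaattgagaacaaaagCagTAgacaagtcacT

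Over these 60 bases the relatives differed from FLC at 7 (MAF2) to 10 (MAF4) positions. Over the whole coding sequence FLC matched the others at 72.9% (MAF5) to 78.4% (FLM) of aligned bases. MAF2 and MAF3 were the closest pair, at 93.6%, and FLM and MAF3 matched at 89.7%. The sources used here do not say how reads were divided between such copies, so the levels of MAF2 and MAF3 are uncertain relative to each other. FLC lies alone on chromosome 5 (3173497 to 3179448, minus strand), FLM on chromosome 1 (28955637 to 28960096, plus strand), and MAF2 to MAF5 stand in a row on chromosome 5, from 25982254 to 26002465 on the plus strand. SVP (9579874 to 9583893, plus strand) and SOC1 (18807538 to 18811047, minus strand) are on chromosome 2, FT on chromosome 1 (24331428 to 24333934, plus strand) and FUL on chromosome 5 (24502482 to 24506143, minus strand), as the deposited table places them. None of the 10 overlaps another gene of that table. The library preparation marked strand, but whether counting used it is not stated, so antisense transcripts of FLC cannot be told apart from FLC mRNA.

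The CArG box, CC followed by 6 bases of A or T and then GG, reads the same way on both strands. It was searched from 1000 bases before each of the 10 genes to its end, with gene bounds from the TAIR10.1 annotation. It occurred once in FT, once before SOC1 and once before FLM, and these sites are shown because FLC and SVP are known to bind CArG boxes in the first intron of FT and in the SOC1 promoter. The box is in capitals, with 10 bases on each side, on the strand of the gene in TAIR10.1.
FT, intron 1, chr1:24331791-24331820, plus strand: aaattattttCCTTTTTTGGggtatactga
SOC1, upstream, chr2:18811817-18811846, minus strand: aattttatctCCAAAAAAGGatattttttt
FLM, upstream, chr1:28954599-28954628, plus strand: ttatatcgggCCTTTAATGGgcatgtgaat

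The FT box starts at base 429 of the annotated gene, the SOC1 box at -711 and the FLM box at -874 relative to the gene start. These positions count from the TAIR10.1 gene starts, 24331373 for FT, 18811125 for SOC1 and 28955483 for FLM. Those starts differ from the ones in the deposited table given above. Of 26709 protein-coding genes of the table, 7.3% hold the box in the 1000 bases before their start and 6.1% in the first 1000 bases from it. The match of letters is a description, and binding was not measured here.

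The libraries held 64552605 to 95223547 estimated count units and 20510 to 20956 genes above 0. About 4 units were taken to stand for 1 sequenced fragment, a scale that the sources used here do not state. Levels are in FPKM, which divides fragments by the length of the gene and the size of the library, so they can be compared between genes. VQ28, read from locus AT4G20000 following the numbering of VQ genes in the literature, averaged 5617 FPKM in VQ28OE9, 5.29 in WT and 6.17 in the libraries labelled VQ28KO12. Of the last, replicates 1 and 2 stood at 8.36 and 10.2 FPKM and replicate 3 had no units. VQ28 mRNA was thus present in replicates 1 and 2. WT replicates 1 to 3 themselves stood at 8.70, 0.456 and 6.72 FPKM. Since the labels do not say how the knockout was made, mRNA levels cannot settle whether VQ28 function is lost. These libraries are named by the knockout label throughout. WT replicate 3 and VQ28OE9 replicate 3 stood apart from the other 7 on the second principal component, which held 16.7% of the variance. Shoot apex markers were at or near 0, with WUS, CLV3 and KNAT1 without units in all 9 libraries and STM at 4 units in 1. Of the 10 flower organ and inflorescence markers, LFY, AP1 and CAL had no units in any library, and SEP4 alone was above 1 FPKM, at 13.4 to 23.3.

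FLC was the gene of the 10 that separated the genotypes most clearly. It stood at 7.22, 5.10 and 6.67 FPKM in WT replicates 1 to 3, a mean of 6.33 ± 1.1 (SD, n = 3). In VQ28OE9 it stood at 3.28, 3.82 and 3.61, a mean of 3.57 ± 0.273. In the 3 libraries labelled VQ28KO12 FLC was at 0.926, 1.79 and 0.789, a mean of 1.17 ± 0.546. The 3 genotypes did not overlap, with WT highest, VQ28OE9 between and VQ28KO12 lowest.

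The widest gap, between the libraries labelled VQ28KO12 and WT, was a log2 fold change of -2.49 ± 0.31 (SE), or 5.6-fold lower, with all 3 libraries lower. It missed the threshold over all genes (edgeR quasi-likelihood test, Benjamini-Hochberg adjusted p = 0.0898). It passed by DESeq2 (6.38e-12), by limma on log2(FPKM + 1) (0.0189), by edgeR without a filter on FPKM (0.0476), on counts divided by 4 (0.0429), and without the library labelled VQ28KO12 replicate 2 (0.0079), but not under the other 13 of 18 alternatives. Among those, the adjusted p was 0.561 without VQ28KO12 replicate 1, 0.552 without WT replicate 1 and 0.323 with a replicate block. The log2 fold change lay between -2.92 and -1.77 over the 18. FLC in VQ28OE9 was 1.8-fold lower than in WT (-0.85 ± 0.29, adjusted p = 0.161). Set against VQ28KO12, FLC was higher in VQ28OE9, 3.11-fold (1.64 ± 0.30, adjusted p = 0.0178). That call was lost without the library labelled VQ28KO12 replicate 1 (0.0716) or replicate 3 (0.0635), and it held without WT replicate 3 and VQ28OE9 replicate 3 together (0.0349). In bulk leaf RNA, fewer cells expressing a gene and less of its RNA in each cell cannot be told apart.

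**Figure D1:**
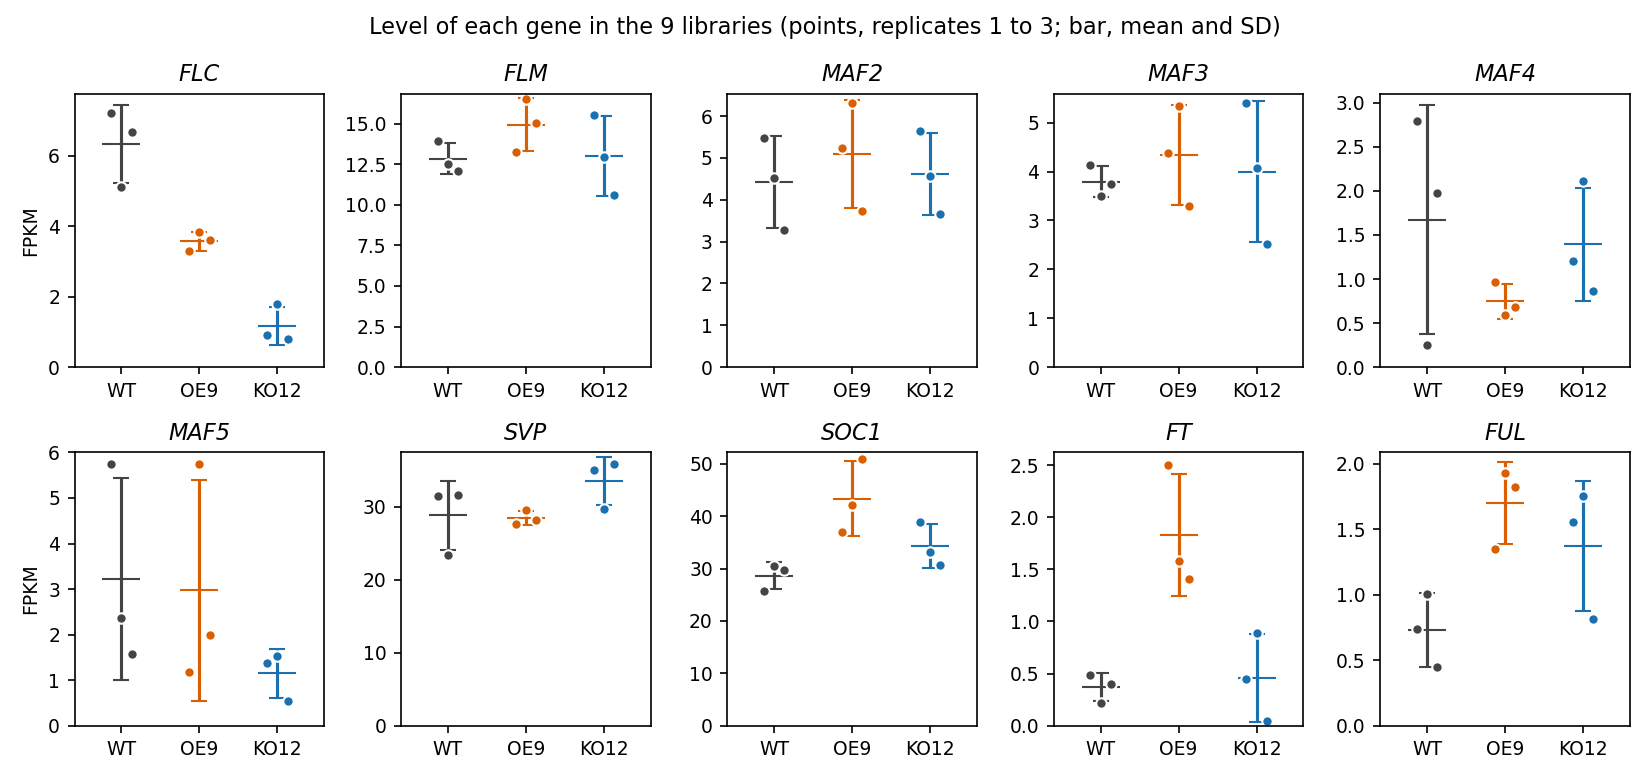
FPKM (vertical axes, from 0, on a scale of their own in each panel) of the 10 genes in WT, VQ28OE9 (OE9) and VQ28KO12 (KO12); points are the 3 libraries, bars the mean and SD. FLC falls into 3 separate levels with means of 6.33, 3.57 and 1.17 FPKM, and FT is above WT and VQ28KO12 in all 3 VQ28OE9 libraries.

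FLM, the relative that helps set flowering to ambient temperature, was the most abundant gene of the clade and varied little. It stood at 13.9, 12.5 and 12.1 FPKM in WT, at 13.3, 16.5 and 15.0 in VQ28OE9, and at 15.5, 13.0 and 10.6 in the libraries labelled VQ28KO12. The genotypes overlapped, and its log2 fold changes were 0.20 ± 0.145 (VQ28OE9 against WT), -0.03 ± 0.145 (VQ28KO12 against WT) and 0.23 ± 0.145 (VQ28OE9 against VQ28KO12).

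MAF2 and MAF3, the near copies at the start of the row on chromosome 5, were also alike in level. MAF2, known to keep plants from taking a short cold spell for winter, averaged 4.43 ± 1.09 FPKM in WT, 5.09 ± 1.29 in VQ28OE9 and 4.62 ± 0.986 in VQ28KO12. MAF3 averaged 3.79 ± 0.318, 4.34 ± 1.02 and 4.0 ± 1.45 in that order. Their log2 fold changes lay between 0.01 and 0.18 over the 3 comparisons, each with an SE of 0.25 to 0.27, and the libraries of the genotypes overlapped.

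MAF4 and MAF5, the other pair of the row, were lower and scattered between libraries of the same genotype. MAF4 stood at 2.79, 0.256 and 1.98 FPKM in WT, at 0.962, 0.587 and 0.687 in VQ28OE9 and at 1.21, 2.11 and 0.867 in VQ28KO12. MAF5 stood at 5.75, 2.36 and 1.57 in WT, at 1.17, 5.74 and 2.00 in VQ28OE9 and at 1.39, 1.53 and 0.536 in VQ28KO12. WT replicate 2 held the lowest MAF4 of the 9 libraries, and WT replicate 1 and VQ28OE9 replicate 2 held the highest MAF5. Between VQ28KO12 and WT, MAF5 did not overlap, all 3 libraries being lower (-1.54 ± 0.65, adjusted p = 0.982). Without WT replicate 1, which held the highest WT level, this difference was -0.84. The genes that flank the row, AT5G65040 and AT5G65090, averaged at most 0.109 FPKM in any genotype.

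FLM was the largest part of the summed FPKM of the clade, from 35.4% in WT replicate 1 to 55.8% in VQ28KO12 replicate 3. FLC made up 19.7% ± 2.61 (SD, n = 3) of the summed FPKM of the 6 clade genes in WT, 11.5% ± 1.39 in VQ28OE9 and 4.63% ± 1.83 in the libraries labelled VQ28KO12. Without FLC the sum of the other 5 was 25.9 ± 5.29 FPKM in WT, 28.1 ± 5.54 in VQ28OE9 and 24.2 ± 5.57 in VQ28KO12. The share of FLC did not overlap between genotypes, while the sum of the others did.

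**Figure D2:**
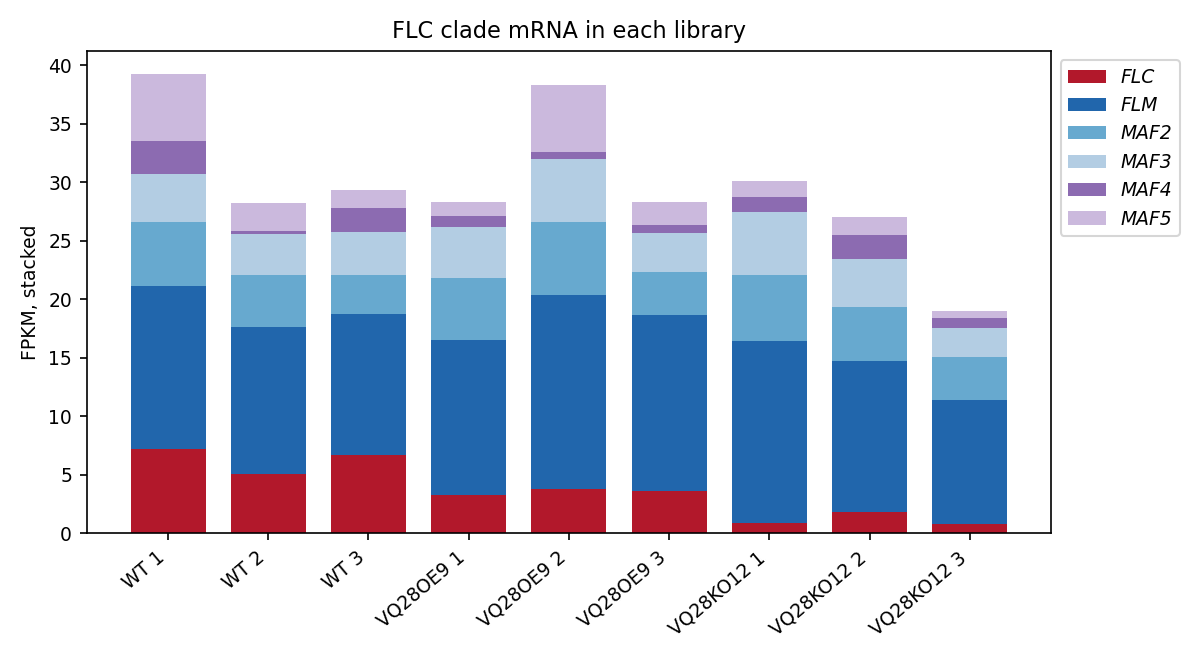
Stacked FPKM of the 6 FLC clade genes (vertical axis, from 0) in each of the 9 libraries. The FLC segment at the foot of each bar shrinks from WT (5.10 to 7.22 FPKM) to VQ28OE9 (3.28 to 3.82) and VQ28KO12 (0.789 to 1.79), and FLM is the largest segment in every library.

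SVP, the partner of FLC and FLM, stood near the top of the list at 31.5, 23.3 and 31.6 FPKM in WT, 27.7, 29.6 and 28.2 in VQ28OE9 and 35.0, 29.7 and 35.8 in VQ28KO12. VQ28OE9 lay just under VQ28KO12 in every library, by -0.21 ± 0.14 on the log2 scale (adjusted p = 0.449), and both overlapped WT. Its log2 fold changes against WT were -0.04 ± 0.14 in VQ28OE9 and 0.17 ± 0.14 in VQ28KO12.

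FT, the florigen gene, was near the detection floor in WT and clearly detected in VQ28OE9. It stood at 0.483, 0.222 and 0.399 FPKM in WT, at 2.50, 1.58 and 1.41 in VQ28OE9 and at 0.446, 0.890 and 0.0453 in the libraries labelled VQ28KO12. All 3 VQ28OE9 libraries were above all 6 others, and VQ28KO12 lay on both sides of WT. In count units these are 30, 14 and 23, then 155, 106 and 96, then 30, 51 and 4, against a floor of 12 units for 3 fragments, so VQ28KO12 replicate 3 was under the floor. The normalized ratio of VQ28OE9 to WT was 4.75 with a 95% exact binomial interval of 2.76 to 8.37, and that to VQ28KO12 was 4.50 (2.80 to 7.68). VQ28KO12 to WT gave 1.06 (0.517 to 2.08), a log2 ratio of 0.08 that became -0.78 without VQ28KO12 replicate 2, -0.17 without WT replicate 2 and 0.72 without VQ28KO12 replicate 3. These intervals cover counting error only and, like the floor, rest on taking 4 units as 1 fragment.

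With a mean of 0.887 FPKM over the 9 libraries FT was left out of the test by the filter of at least 1 FPKM. Without that filter its log2 fold change in VQ28OE9 against WT was 2.26 ± 0.76 (edgeR adjusted p = 0.183), and an exact two-sided permutation test gave p = 0.1, the smallest that 3 against 3 libraries allow. On the log2 scale the ratio of VQ28OE9 to VQ28KO12 was 2.17, and it was 3.03 without VQ28KO12 replicate 2 and 1.52 without VQ28KO12 replicate 3. Summed levels of the phloem companion cell markers SUC2 and AHA3 were 213 to 243 FPKM in WT, 215 to 266 in VQ28OE9 and 188 to 226 in VQ28KO12. The summed leaf mesophyll markers RBCS1A, LHCB1.1 and LHCB1.2 were 17690 to 20800 FPKM in WT, 13370 to 16320 in VQ28OE9 and 16950 to 21560 in VQ28KO12. RBCS1A was lower in VQ28OE9 than in WT without overlap (means of 8247 and 11110 FPKM), while LHCB1.1 and LHCB1.2 overlapped. The part of the phloem or the mesophyll markers in the FT values was not tested.

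SOC1, a MADS-box gene that promotes flowering downstream of FT, was abundant in leaves of all genotypes. It stood at 25.7, 30.6 and 29.8 FPKM in WT, at 37.0, 42.1 and 51.0 in VQ28OE9 and at 38.9, 33.2 and 30.7 in VQ28KO12. Both lines lay above WT in every library, VQ28OE9 by 0.58 ± 0.15 on the log2 scale (edgeR adjusted p = 0.0742, DESeq2 0.0125) and VQ28KO12 by 0.20 ± 0.15 (edgeR adjusted p = 1). The lines overlapped each other, with a difference of 0.37 ± 0.15 (adjusted p = 0.181).

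FUL, known for fruit and inflorescence identity, was low in leaves. It stood at 0.736, 1.01 and 0.446 FPKM in WT, at 1.35, 1.93 and 1.82 in VQ28OE9 and at 1.56, 1.75 and 0.814 in VQ28KO12. VQ28OE9 was above WT in every library, by 1.19 ± 0.38 on the log2 scale (edgeR adjusted p = 0.131, DESeq2 0.0391), and VQ28KO12 overlapped WT (0.84 ± 0.37, adjusted p = 0.982). FUL reached the filter only through the lines, since its WT mean was 0.730 FPKM, so its p-values and its place in any count of members are given as values and support nothing.

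**Figure D3:**
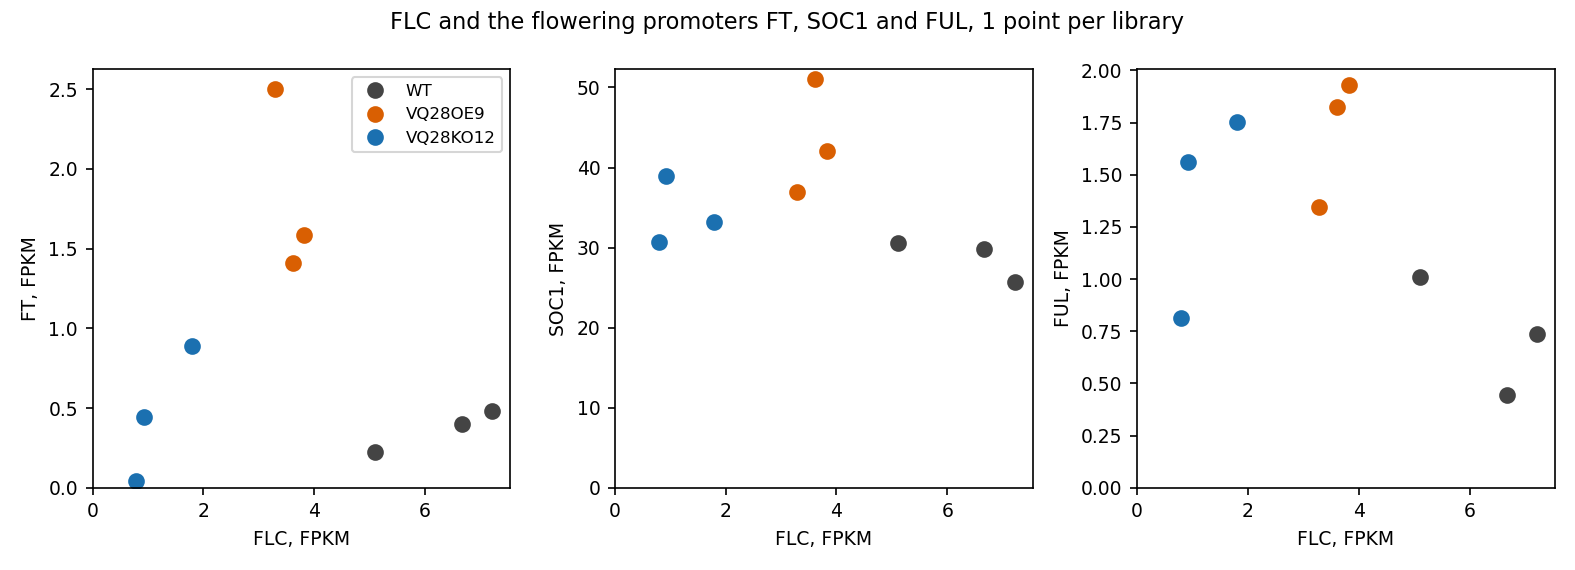
FPKM of FT, SOC1 and FUL (vertical axes) against FPKM of FLC (horizontal axes), 1 point per library, all axes from 0. VQ28KO12 has the lowest FLC (0.789 to 1.79 FPKM), and FT is highest in VQ28OE9 (1.41 to 2.50 FPKM), where FLC is intermediate.

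In WT the order of levels was SVP, SOC1, FLM, FLC, MAF2, MAF3, MAF5, MAF4, FUL and FT. Only SOC1 with FLM and FLM with FLC were neighbours whose libraries did not overlap. FLC held rank 4 in WT, rank 6 in VQ28OE9 and rank 8 in VQ28KO12. In VQ28OE9 its libraries overlapped those of MAF3 and MAF5, ranked next above and below. In VQ28KO12 they overlapped those of FUL and MAF5, with mean levels of 1.17 FPKM for FLC and 1.15 for MAF5. FT was last in WT and VQ28KO12 and held rank 8 in VQ28OE9, above FUL and MAF4.

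In VQ28OE9 against WT 0 of the 9 tested members passed, where 2.31% of 16050 genes did. At an unadjusted p under 0.05 there were 3 (FLC, SOC1 and FUL), beside 17.4% of all genes tested, and DESeq2 called 2 (SOC1 and FUL), where it called 8.47% of genes. In VQ28KO12 against WT 0 passed, where 0.00623% of genes did, with 3 at an unadjusted p under 0.05 (FLC, MAF5 and FUL), beside 5.03% of genes, and 1 by DESeq2 (FLC), which called 0.243% of genes. In that comparison limma on log2(FPKM + 1) called 0.0187% of genes, edgeR without a filter 0.00858% and edgeR on counts divided by 4 0.0187%, each with FLC among them. In VQ28OE9 against VQ28KO12 1 of 9 passed, FLC, where 6.33% of genes did, 2 did at an unadjusted p under 0.05 (FLC and SOC1), beside 21.2% of genes, and DESeq2 called 1, beside 12.2%. FUL, in 2 of these unadjusted counts and 1 DESeq2 count, passed the filter only through the lines. The 3 libraries of each genotype did not overlap for 3, 3 and 2 of the 9 tested members in these comparisons, where 22.3%, 10.8% and 26.5% of tested genes did not overlap. These comparisons share libraries, so their values are not independent. The median log2 fold change of the 9 was 0.17, 0.01 and 0.23, beside -0.0029, 0.0013 and -0.0071 over all genes tested.

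**Figure D4:**
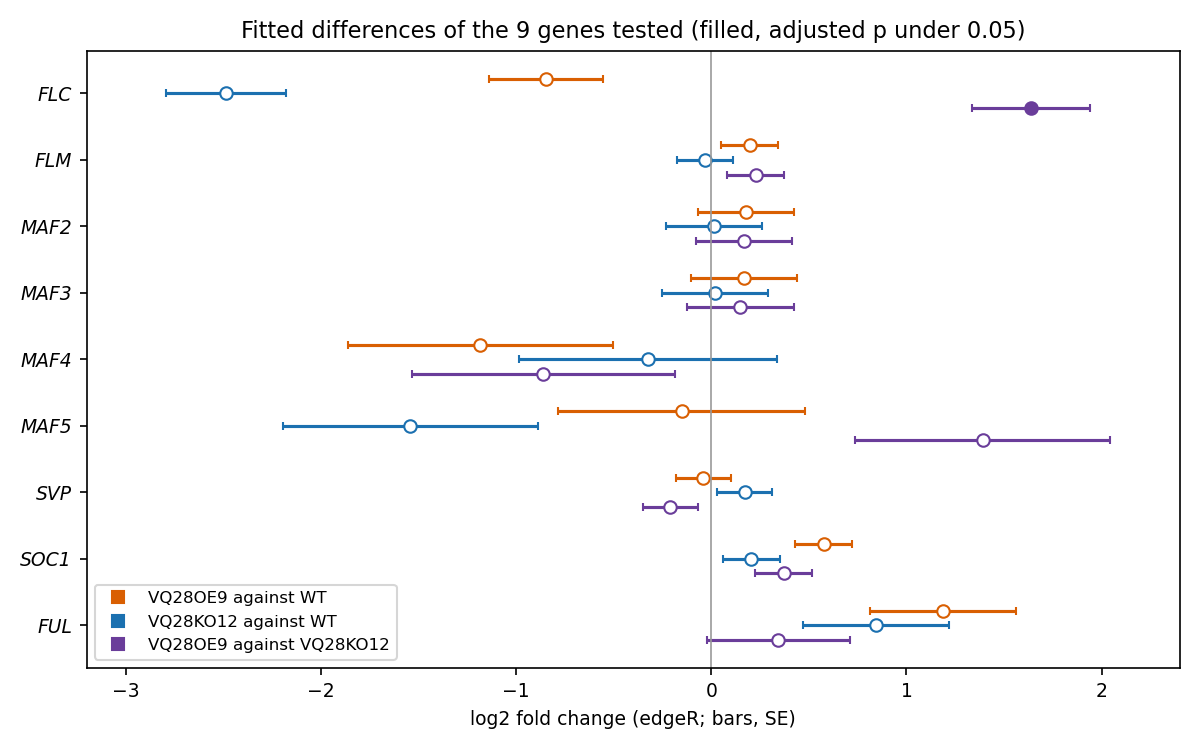
Fitted log2 fold change (horizontal axis, bars SE) of the 9 tested genes in the 3 comparisons, with filled points for an adjusted p under 0.05. FLC lies farthest from 0, at -2.49 in VQ28KO12 against WT, and its 1.64 in VQ28OE9 against VQ28KO12 is the filled point; MAF2, MAF3, FLM and SVP lie within 0.23 of 0.

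AT5G10150, annotated with a domain of unknown function, is next to FLC in the table on its upstream side, 2534 bases away. It had a pattern unlike that of FLC. It stood at 3.51, 2.61 and 4.30 FPKM in WT, at 1.90, 2.14 and 1.05 in VQ28OE9 and at 3.63, 4.06 and 3.04 in VQ28KO12. It was lowest in VQ28OE9, without overlap, by -1.06 ± 0.29 on the log2 scale against WT (edgeR adjusted p = 0.0855, DESeq2 0.00907) and by -1.05 ± 0.29 against VQ28KO12 (0.0596 and 0.00685), and differed by -0.012 ± 0.281 between VQ28KO12 and WT. On the other side, AT5G10130 averaged at most 0.041 FPKM. The genes beside FLM, AT1G77060 and AT1G77090, had log2 fold changes between -0.16 and 0.20.

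FLC had the widest range of the tested members over the 9 libraries, 2.20 on the log2(FPKM + 1) scale. The 5 tested genes with the most similar centred profile lay at a root mean square difference of 0.437 to 0.461 over the 9 libraries. They were AT1G59920, annotated as a MADS-box family gene, AT5G58310, a methyl esterase gene, and AT2G14560, annotated as a protein of unknown function. The others were AT2G21650, a homeodomain-like gene, and AT3G47342, a small nucleolar RNA gene. AT1G59920 stood at 2.62, 3.10 and 2.05 FPKM in WT, at 0.877, 1.37 and 2.23 in VQ28OE9 and at 0.844, 0.770 and 0.617 in VQ28KO12.

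The rest of the flowering network was read from 9 lists with 85 further genes, of which 57 were tested. In VQ28OE9 against WT none of the 57 passed by edgeR, with 9 at an unadjusted p under 0.05, and DESeq2 called 3 (SPL4 higher, SPL5 and ARP6 lower). Over all genes the shares were 2.31% by edgeR, 17.4% unadjusted and 8.47% by DESeq2. SPL5 overlaps another gene of the table, so its counts are uncertain. In VQ28KO12 against WT none passed, 1 did at an unadjusted p under 0.05 (SPL10) and DESeq2 called none. There the shares over all genes were 0.00623% by edgeR, 5.03% unadjusted and 0.243% by DESeq2. In VQ28OE9 against VQ28KO12 1 was higher and 2 were lower by edgeR, where 6.33% of all genes were called, and DESeq2 called 5, where it called 12.2%. The median of the 57 was -0.05, 0.02 and -0.05 on the log2 scale in these comparisons.

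Of the genes that act on FLC, 1 was called, ARP6, in 1 comparison. None of the 8 tested autonomous pathway genes, which keep FLC low, passed in any comparison, and FPA had the smallest p in VQ28OE9 against WT (-0.32 ± 0.13, adjusted p = 0.222) and FVE in VQ28KO12 against WT (0.20 ± 0.15, adjusted p = 1). None of the 8 tested Polycomb and vernalization genes passed either. LHP1 stood at 5.96 FPKM in VQ28OE9 and 5.47 in VQ28KO12 against 4.26 in WT (edgeR adjusted p = 0.178 and 0.987). Both lines lay above WT without overlap, and they overlapped each other. VIN3, which cold induces, had no units in any library. Of the 10 tested FLC activators, ARP6, a subunit of the SWR1 chromatin complex, was lower in VQ28OE9 than in VQ28KO12, at 6.46 ± 0.524 against 9.67 ± 0.362 FPKM (-0.56 ± 0.12, edgeR adjusted p = 0.0282), and stood at 8.64 FPKM in WT. FPA, FIE, VIN3, MSI1 and FRI overlap other genes of the table, so their counts are uncertain.

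The photoperiod, AP2-like and FT partner lists had no gene past the threshold. GI, a clock-linked activator of CO, stood at 4.33 FPKM in VQ28OE9 and 4.34 in VQ28KO12 against 3.46 in WT (adjusted p = 0.253 and 0.982). CO, the photoperiod activator of FT, was between 0.0304 and 0.321 FPKM in the 9 libraries and was not tested. TOE2, an AP2-like repressor of FT, was lowest in VQ28OE9, at 3.78 against 4.97 FPKM in WT (-0.42 ± 0.14, adjusted p = 0.166) and 5.13 in VQ28KO12 (adjusted p = 0.129). Of the 8 tested genes of that list, 6 had a negative and 2 a positive log2 fold change in VQ28OE9 against WT. TEM2, on the same list, was higher there, at 17.8 against 7.89 FPKM (1.17 ± 0.68, edgeR adjusted p = 0.432). Of the FT family and its partners only BFT and FTIP1 were expressed enough to test, and TSF, the closest relative of FT, had units in 1 library of 9.

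The age pathway was the list with calls in both directions. SPL4, a target of microRNA miR156 that promotes flowering, rose to 19.7 ± 4.42 FPKM in VQ28OE9 from 10.9 ± 1.04 in VQ28KO12 (0.87 ± 0.17 on the log2 scale, edgeR adjusted p = 0.0208), with 12.9 in WT. SPL10 was lower in VQ28OE9, at 0.966 ± 0.106 against 1.82 ± 0.255 FPKM (-0.88 ± 0.19, adjusted p = 0.0259), with 1.15 in WT. SPL10 overlaps no other gene of the table but lies beside its close relative SPL11. How reads were divided between them is not stated, and how alike their sequences are was not measured here. ARP6, SPL4 and SPL10 passed in 12 of 19, 15 of 19 and 11 of 18 alternative settings. None of the 3 passed without the library labelled VQ28KO12 replicate 1 or 3 or without VQ28OE9 replicate 2, and 1 list gene did without VQ28OE9 replicate 1. AGL24, another MADS-box promoter of flowering, differed by 0.38 ± 0.18 between the lines (adjusted p = 0.265).

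**Figure D5:**
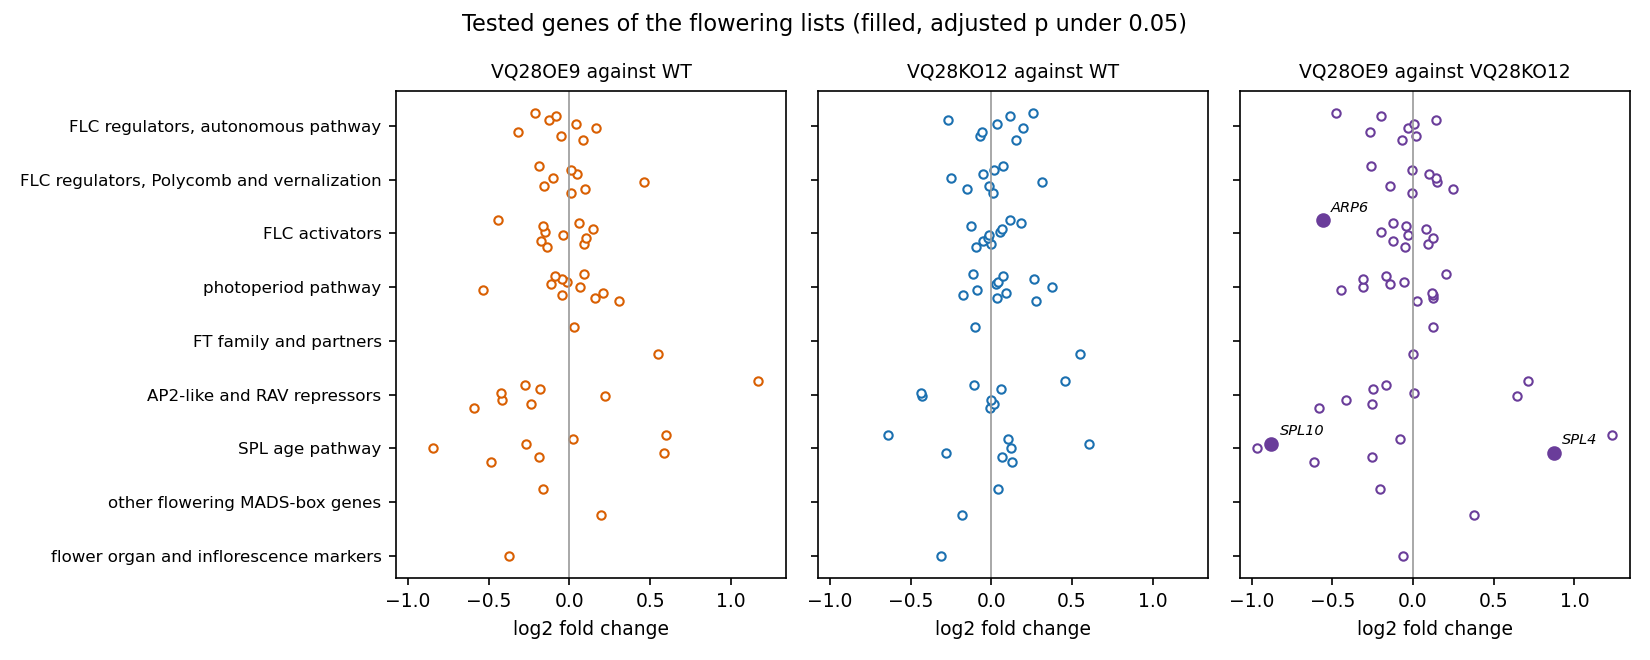
Log2 fold change (horizontal axes) of each tested gene of the 9 flowering lists, 1 panel per comparison, with filled and named points for an adjusted p under 0.05. The named points, ARP6 (-0.56), SPL10 (-0.88) and SPL4 (0.87), are all in VQ28OE9 against VQ28KO12.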

How the data were processed

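The authors deposited, per the file headers, 1 table with an FPKM and a whole-number count per gene and library. Neither labels nor headers used here name the aligner, the counting tool or the build. The deposited counts were handled as estimated counts, since 48.7% to 57.0% of the values from 1 to 16 were multiples of 4. A gene with 0 units is listed at an FPKM of 0.0001. Of the 10 members, 9 share their lower coordinate with a RefSeq TAIR10.1 transcript and 4 share their higher coordinate. For genes on the minus strand the lower coordinate is the 3′ end.

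Testing covered 16050 genes, those averaging 1 FPKM or more, and was done with edgeR 4.0.16 (R 4.3.3, TMM, quasi-likelihood, two-sided), all 9 libraries together with 1 mean per genotype. A call is a Benjamini-Hochberg adjusted p under 0.05 over all tested genes. Standard errors were derived from each log2 fold change and its F statistic. DESeq2 1.42.0 and limma 3.58.1 were alternatives. The steps were tested on simulated data. Libraries were grouped by sample titles. The FT interval treats 4 units as 1 fragment. Named genes were the members, list genes that were called (otherwise the smallest p), locus neighbours and the 5 nearest profiles to FLC. A few others, such as CO and TSF, were chosen after their values were seen. The members and lists were chosen with earlier results of these data known.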

Additional observations from a re-analysis of the deposited data

How the results depend on the processing

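Alternatives were another tool, pseudocount, size factor, filter or count scale, only the 6 libraries compared, a replicate block, WT replicate 3 and VQ28OE9 replicate 3 left out together, and each library left out in turn. The count of members called in VQ28KO12 against WT was 1 (FLC), not 0, by DESeq2, by limma on log2(FPKM + 1), without a filter and on counts divided by 4, and 0 to 1 with single libraries left out. In VQ28OE9 against WT it was 2 by DESeq2, where 3 list genes were called. In VQ28OE9 against VQ28KO12 it was 0 at a mean FPKM of at least 5, a filter that leaves FLC out, and 0 to 1 with single libraries left out, while list genes called were 5 by DESeq2 and 0 to 4 with single libraries left out. Small differences that were not called changed sign. SVP in VQ28OE9 against WT was 0.041 without both libraries named above and -0.18 to 0.040 with single ones left out, and MAF5 was -1.01 to 0.55. In VQ28KO12 against WT, FLM was 0.0072 and 0.0067 by limma with pseudocounts of 1 and 0.1 (-0.15 to 0.073 with single libraries left out), MAF4 was 0.13 by limma with 0.1 (-0.83 to 0.24), and MAF2 was -0.16 without both libraries (-0.15 to 0.18). MAF3 was -0.034 with the replicate block (-0.24 to 0.25), and in VQ28OE9 against VQ28KO12 -0.082 to 0.41. The cause was not tested. Same-numbered libraries of different genotypes had deviations with correlations of -0.20 to 0.31, over 0.1 in 4 of 9 pairs. For differently numbered libraries of different genotypes the correlations ran from -0.328 to 0.315. Whether equal numbers mark a shared batch was not tested, and the main fit did not take them as pairs. With the replicate block FLC kept log2 fold changes of -2.54, -0.86 and 1.67. Depth limits FT, CO and other genes of few fragments.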
